A study of Mus musculus with 39 samples.

Results

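The 40 cell cycle genes described here were taken from a list of symbols, 19 of the G1/S phases and 21 of the G2/M phases, and all 40 were among the 16358 genes of the deposited count table. They were followed in bulk RNA-seq of the duodenum of wild-type male C57BL/6 mice aged 8 weeks, over 39 libraries. Leptin-antibiotic mice (6 libraries) and Saline-antibiotic mice (6 libraries) had 1 g/L ampicillin plus 0.5 g/L neomycin in their drinking water during the last 48 h, and then received 3 µg of leptin or saline into the brain ventricle. Leptin-water mice (13 libraries) and Saline-water mice (14 libraries) drank plain water and received the same injections. All mice carried a cannula placed 3 days earlier, had been without food for 2 h before the injection, and gave tissue 2 h after it. The library names in the labels are of 2 kinds, called set MT and set M here. Each of the 4 groups had 6 libraries in set MT, and set M comprised 7 Leptin-water and 8 Saline-water libraries. What differed between the sets is not stated in the labels, and neither is whether each library came from a separate animal, so p-values measure the spread between these samples.

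The duodenal lining is renewed continuously from stem cells at the base of the crypts, whose daughters divide several times before they stop, differentiate and move onto the villi. Cells entering the cycle first switch on genes for DNA replication, which are driven by E2F transcription factors and peak at the G1/S transition. The genes for mitosis peak later, in G2 and M, and are driven by complexes of B-Myb, FoxM1 and NF-Y that act through CHR and CCAAT elements. Transcripts of both kinds in a bulk sample therefore mark its dividing cells, which sit mostly in crypts. In such a sample fewer cells of a type and less RNA per cell cannot be told apart.

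The phases differ in the letters of their promoters, so 5 promoters of genes whose values are described below are shown. They run 250 bases before to 50 bases after the start (RefSeq, GRCm38.p6, 5′ to 3′ on the gene's strand). By GENCODE gene positions the windows of Mcm7 and Cdc6 lie inside the gene, which begins at 138172422 for Mcm7 and 98907801 for Cdc6. Capitals mark E2F letters (TTTCCCGC, TTTGGCGC, TTTCGCGC or TTTGCCGC), CHR letters (TTTGAA or TTCGAA) and CCAAT, each searched on both strands, and adjoining or overlapping matches form 1 run of capitals. Mki67 lies at chr7:135716330-135716629 (minus strand), Plk1 at chr7:122159185-122159484 (plus), Cenpf at chr1:189688037-189688336 (minus), Mcm7 at chr5:138171834-138172133 (minus) and Cdc6 at chr11:98907901-98908200 (plus).
Mki67: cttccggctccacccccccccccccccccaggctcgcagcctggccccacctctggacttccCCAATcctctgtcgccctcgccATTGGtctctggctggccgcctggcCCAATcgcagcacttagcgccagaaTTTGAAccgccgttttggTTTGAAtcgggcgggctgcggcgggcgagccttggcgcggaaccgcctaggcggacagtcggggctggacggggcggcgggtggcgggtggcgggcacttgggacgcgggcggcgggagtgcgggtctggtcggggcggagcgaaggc
Plk1: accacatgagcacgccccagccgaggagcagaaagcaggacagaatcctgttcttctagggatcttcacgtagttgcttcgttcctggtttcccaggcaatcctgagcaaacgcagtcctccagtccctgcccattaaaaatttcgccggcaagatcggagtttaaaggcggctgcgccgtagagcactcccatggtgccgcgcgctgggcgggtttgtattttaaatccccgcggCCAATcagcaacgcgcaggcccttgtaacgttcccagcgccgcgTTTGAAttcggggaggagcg
Cenpf: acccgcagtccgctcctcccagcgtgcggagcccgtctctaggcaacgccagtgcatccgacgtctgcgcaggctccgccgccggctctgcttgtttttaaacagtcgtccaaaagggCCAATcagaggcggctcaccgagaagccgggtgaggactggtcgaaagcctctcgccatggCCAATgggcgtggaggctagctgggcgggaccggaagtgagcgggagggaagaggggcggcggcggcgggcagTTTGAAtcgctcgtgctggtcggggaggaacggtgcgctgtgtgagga
Mcm7: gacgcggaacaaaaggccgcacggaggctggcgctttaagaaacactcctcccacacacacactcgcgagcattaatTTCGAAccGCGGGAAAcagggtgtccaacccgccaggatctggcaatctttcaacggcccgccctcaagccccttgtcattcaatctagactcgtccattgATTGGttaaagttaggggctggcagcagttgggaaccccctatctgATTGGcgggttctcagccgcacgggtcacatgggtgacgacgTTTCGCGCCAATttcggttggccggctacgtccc
Cdc6: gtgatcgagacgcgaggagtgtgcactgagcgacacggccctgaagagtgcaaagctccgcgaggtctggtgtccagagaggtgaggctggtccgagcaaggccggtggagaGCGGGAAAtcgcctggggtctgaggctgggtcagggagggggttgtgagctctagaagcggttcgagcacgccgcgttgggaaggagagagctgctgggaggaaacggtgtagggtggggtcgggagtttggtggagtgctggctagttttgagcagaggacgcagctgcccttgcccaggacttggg

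The 3 G2/M genes Mki67, Plk1 and Cenpf carry CHR letters and CCAAT. The 2 G1/S genes Mcm7 and Cdc6 carry E2F letters, in Mcm7 together with CHR letters and CCAAT. The table of promoters held 31 of the 40 genes, without Ccnd1, Ccne2, Gmnn, Mcm4, Ccna2, Aurkb, Kif20a, Tpx2 and Foxm1. E2F letters were present in 7 of 15 G1/S promoters (46.7%) and in 1 of 16 G2/M promoters (6.25%), that of Cdk1, against 2.32% of the 27025 promoters in the table. CHR letters were present in 12 of 16 G2/M promoters (75.0%) and in 3 of 15 G1/S promoters (20%), against 19.4% of all. CCAAT was present in 15 of 16 G2/M promoters (93.8%) and in 10 of 15 G1/S promoters (66.7%), against 37.9% of all. The windows of E2f1, Cdc6, Mcm7 and Troap lie inside the gene by GENCODE positions, so these shares include windows downstream of another annotated start. E2F letters were absent from the E2f1 window, which does not cover that upstream start. A match of letters is a description of these windows and not a site.

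Library totals were 30207536 to 67870777 counts (median 48282125), and the 40 genes took 0.0840% to 0.194% of them. The lowest count of any of the 40 in any library was 87 (Troap, in Saline-water 10), so all 40 were counted well above 0 everywhere. A list of 6 genes of duodenal identity had summed levels of 3742 to 6388 CPM (TMM-scaled counts relative to library size), and the ileal transporter Slc10a2 was at 0.639 to 3.19 CPM. Exocrine pancreas transcripts stood out in 6 libraries, Leptin-antibiotic 3, Saline-antibiotic 1, 2 and 5, and Leptin-water 6 and 10. The mean of 18 pancreas genes was 5.04 to 6.01 log2 CPM in these 6, against −2.30 to 3.16 in the other 33. For each comparison that includes these libraries, other than those within 1 set on water, medians are given with and without them. Counts are given likewise, except for the G1/S genes in the difference of the leptin effect between sets.

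Per kilobase of annotated exon, the levels of the 40 genes spanned 1.01 to 23.2 CPM. Pcna, the sliding clamp of DNA polymerase, had the highest level per length at 23.2 CPM per kb, followed by Mki67, the coat protein of mitotic chromosomes read as Ki-67 in histology, at 18.1. Top2a, the topoisomerase that untangles sister chromatids, and Plk1, a kinase that drives mitotic entry, were next at 15.3 and 15.2 CPM per kb. The lowest were the cyclin E genes Ccne1 and Ccne2, which pair with Cdk2 at the G1/S transition, at 1.38 and 1.08, and the spindle protein gene Troap at 1.01. Over the 39 libraries the coefficient of variation of CPM was between 8.81% for the licensing factor gene Cdt1 and 24.2% for the spindle checkpoint kinase gene Bub1. The order per length therefore put genes of both phases at the top and at the bottom, but not evenly. Of the genes named as highest, Pcna alone is of G1/S. Just above the cyclin E genes came E2f1, Cdc45 and Cdc6 of G1/S (1.88, 1.84 and 1.58 CPM per kb), with Troap alone of G2/M among these low genes.

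Within a group, the 40 genes were high or low together in certain libraries. Saline-antibiotic 1 had the highest CPM of its group for 39 of the 40 genes, with 308 CPM of Mki67. Within set MT Saline-water, library 9 was highest for 31 genes (Mki67 265 CPM) and library 10 lowest for 35 (Mki67 124 CPM). In set M, Leptin-water 6 was highest for 31 genes and Saline-water 6 for 32. The ribosomal RNA gene Rn45s took 13.3% of counts in Saline-antibiotic 1, the highest share of the 39 libraries (2.87% to 13.3%). Its share was 9.82% in Saline-water 9, 11.2% in Saline-water 10, 11.9% in Leptin-water 6 and 8.37% in Saline-water 6. The part of Rn45s in these levels was not tested. The SD of the mean level of the 21 G2/M genes, in log2 CPM, was 0.18 for Leptin-antibiotic, 0.29 for Saline-antibiotic, 0.07 in set MT Leptin-water and 0.35 in set MT Saline-water. Leptin libraries of set MT thus lay closer together than saline libraries of set MT, a difference in spread that was not tested. The G2/M mean exceeded the G1/S mean by 0.33 ± 0.06 (log2) for Leptin-antibiotic libraries and 0.51 ± 0.10 for Saline-antibiotic libraries (SD, n = 6 each), and by 0.33 ± 0.04 in Leptin-water and 0.46 ± 0.14 in Saline-water of set MT (n = 6 each). In set M this excess was 0.36 ± 0.10 in Leptin-water (n = 7) and 0.33 ± 0.08 in Saline-water (n = 8), so it was not smaller with leptin there. The SD of the G2/M mean itself in set M was 0.16 for Leptin-water and 0.14 for Saline-water, and the plot of mean levels by library shows both patterns.

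**Figure D1:**
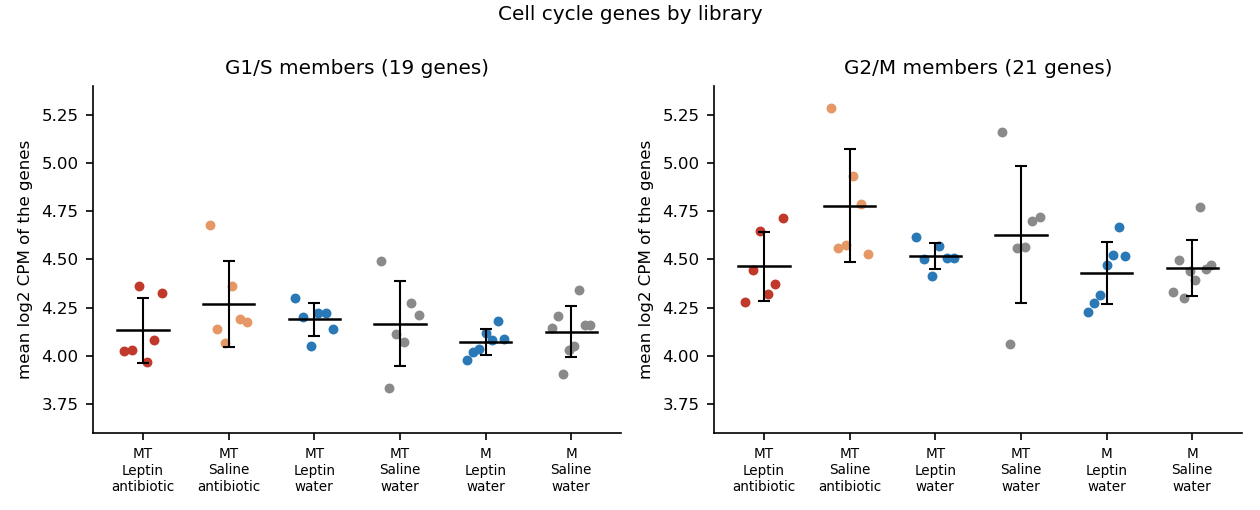
Mean log2 CPM of the 19 G1/S genes (left) and the 21 G2/M genes (right) on the vertical axes, with 1 point per library, in the 6 combinations of set, injection and drink on the horizontal axes. Horizontal lines are means and bars are SD. The G2/M mean is 4.46 ± 0.18 in Leptin-antibiotic and 4.78 ± 0.29 in Saline-antibiotic (n = 6 each), and the highest point, in Saline-antibiotic, is library 1.

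The first question was whether leptin in the brain changes duodenal cell cycle transcripts in mice given antibiotic. None of the 40 genes passed the threshold, an adjusted p under 0.05 in edgeR's quasi-likelihood test over all genes, against 0.514% of the 16340 genes tested (84 genes). At an unadjusted p under 0.05 there were 14 of the 40, all lower with leptin, 11 of the G2/M genes and 3 of the G1/S genes, against 17.2% of all genes. The log2 fold change was negative for 21 of 21 G2/M genes (median −0.31) and for 15 of 19 G1/S genes (median −0.14), against 53.6% of all genes (median −0.02). Because the 40 genes were high or low together in certain libraries, their signs are not independent of each other, here and in the later comparisons. DESeq2 and limma voom also called 0 of the 40.

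Among the G2/M genes the mitotic ones were led by Cenpf, Mki67 and Bub1. Cenpf, which encodes a large kinetochore protein, had 21.6 to 38.0 CPM (median 31.2) in Leptin-antibiotic and 33.9 to 52.5 CPM (median 39.2) in Saline-antibiotic. Its log2 fold change was −0.41 (SE 0.14, edgeR adjusted p = 0.137). Mki67 had 155 to 204 CPM (median 166) in Leptin-antibiotic and 186 to 308 CPM (median 203) in Saline-antibiotic. The groups overlapped for both genes through Leptin-antibiotic 6, since 5 of 6 Leptin-antibiotic libraries lay below the lowest Saline-antibiotic library. For Mki67 the log2 fold change was −0.39 (SE 0.14, edgeR adjusted p = 0.172). Bub1 had 9.98 to 13.0 CPM (median 10.6) in Leptin-antibiotic and 11.6 to 20.5 CPM (median 14.5) in Saline-antibiotic, with a log2 fold change of −0.45 (SE 0.16, edgeR adjusted p = 0.173). This was the lowest log2 fold change of the 40 genes in this comparison, and the value nearest 0 among the G2/M genes was that of the kinase gene Aurkb, −0.18 (SE 0.17).

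The G1/S genes were less uniform. Mcm4 and Mcm7 encode subunits of the MCM helicase that unwinds DNA at the fork, and Ccnd1 encodes cyclin D1, which couples growth signals to entry into the cycle. Mcm4 had 17.2 to 26.6 CPM (median 19.9) in Leptin-antibiotic and 21.3 to 35.3 CPM (median 24.9) in Saline-antibiotic, a log2 fold change of −0.34 (SE 0.13, edgeR adjusted p = 0.178). Mcm7 had 28.3 to 40.9 CPM (median 31.0) in Leptin-antibiotic and 33.0 to 56.5 CPM (median 38.1) in Saline-antibiotic, a log2 fold change of −0.27 (SE 0.13, edgeR adjusted p = 0.270). Ccnd1 had 25.9 to 45.6 CPM (median 35.8) in Leptin-antibiotic and 38.4 to 56.4 CPM (median 41.1) in Saline-antibiotic, a log2 fold change of −0.31 (SE 0.15, edgeR adjusted p = 0.283). All 3 ranges overlapped between the groups. Positive values were found for 4 genes, Rrm2 (0.23, SE 0.13), a subunit of ribonucleotide reductase, Cdt1 (0.09, SE 0.08), the origin licensing gene Cdc6 (0.04, SE 0.11) and Pcna (0.03, SE 0.09). The levels of Mki67, Bub1, Plk1 and Mcm4 are plotted by library.

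**Figure D2:**
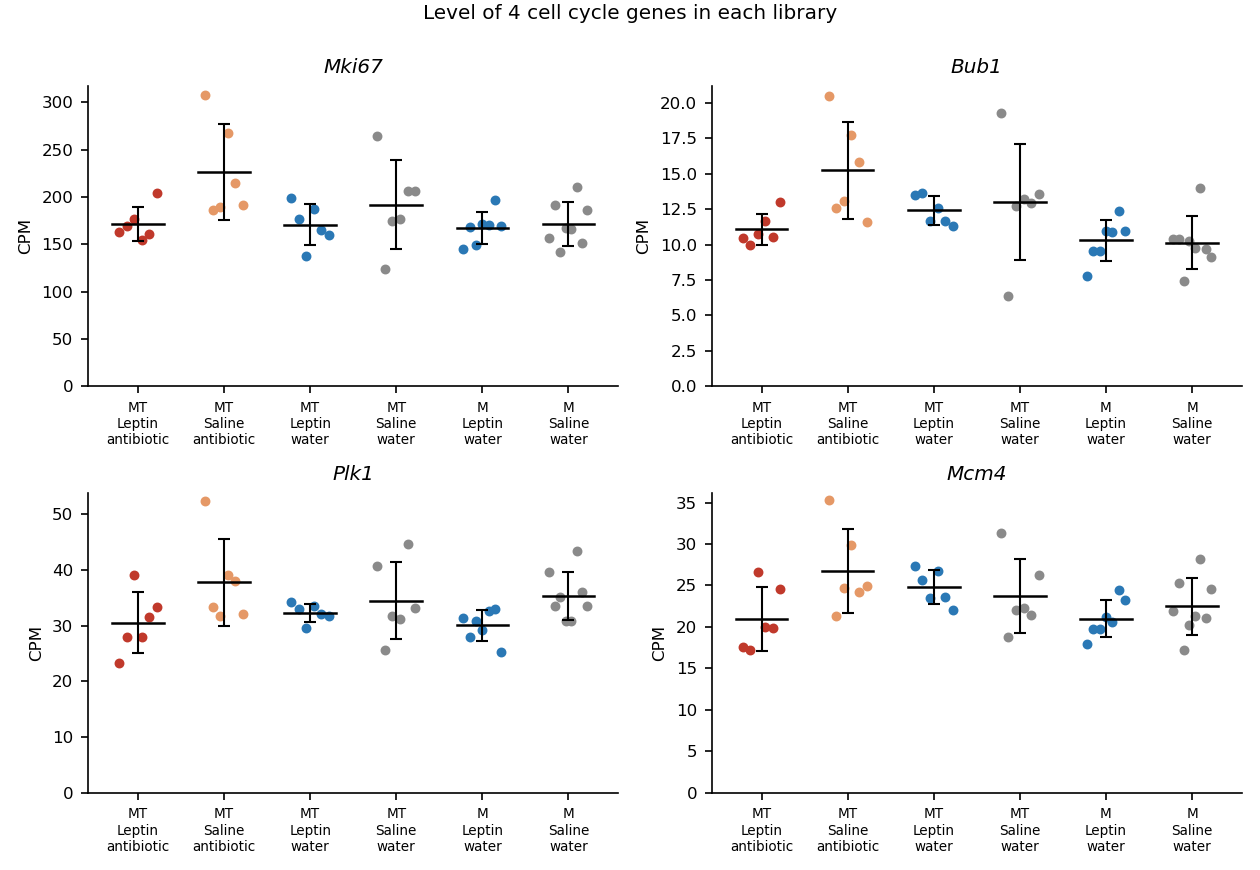
CPM on the vertical axes, starting at 0, of Mki67, Bub1, Plk1 and Mcm4 in each library, by set, injection and drink on the horizontal axes. Points are libraries, horizontal lines are means and bars are SD. Mki67 is 171 ± 17.6 CPM in Leptin-antibiotic and 226 ± 50.6 CPM in Saline-antibiotic (n = 6 each), and in each panel the highest point of Saline-antibiotic is library 1.

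The lists of other mitosis, other replication and stem cell genes mostly had the same sign on antibiotic. All other lists were read in the same libraries as the cell cycle genes above. Their signs are therefore not independent of the signs of those genes, here and in the later comparisons. Of 51 other mitosis genes, 51 had a negative log2 fold change (median −0.32, 30 with an unadjusted p under 0.05), and of 39 other replication genes 38 did (median −0.24, 13 with an unadjusted p under 0.05), with 0 passing the threshold in either list. The stem cell and Wnt list was negative in 16 of 17 genes (median −0.21), with Lgr5, the receptor that marks crypt stem cells, at −0.16 (SE 0.14). The villus enterocyte list was positive in 16 of 18 genes (median 0.33), with Alpi, the brush border alkaline phosphatase, at 0.32 (SE 0.13, edgeR adjusted p = 0.219). Its summed level was 41474 to 58657 CPM in Leptin-antibiotic and 25951 to 46545 CPM in Saline-antibiotic, with no marker at 0 counts in any library. Acta2, the smooth muscle actin, was at −0.18 (SE 0.14). In the list of cell cycle brakes and their regulators the gene called was Mdm2, the ubiquitin ligase that degrades p53 and so relieves a brake, which rose with a log2 fold change of 0.44 (SE 0.09, edgeR adjusted p = 0.0311).

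Exocrine pancreas genes moved with this comparison. All 18 had a negative log2 fold change (median −1.09), and their summed level was 19.5 to 1526 CPM in Leptin-antibiotic (median 23.8) and 16.1 to 1486 CPM in Saline-antibiotic (median 573). Of the 18, 4 had 0 counts in at least 1 Leptin-antibiotic library and 3 in at least 1 Saline-antibiotic library. Without the 6 libraries high in pancreas genes, the log2 fold change was still negative for 21 of 21 G2/M genes (median −0.25) and 15 of 19 G1/S genes (median −0.14). In that smaller comparison 0 of all genes passed by edgeR, Mdm2 included, with 1331 genes at an unadjusted p under 0.05. Without Saline-antibiotic 1 the medians were −0.21 for G2/M, with 21 of 21 negative, and −0.08 for G1/S, and without Leptin-antibiotic 4 that of G1/S was −0.09. The part of villus enterocyte content in the result was not tested.

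On water, where 27 libraries of both sets entered with set as a term, the same question gave smaller values. None of the 40 genes passed the threshold, against 0.312% of the 16356 genes tested (51 genes), and 2 had an unadjusted p under 0.05, against 11.4% of all genes. The log2 fold change was negative for 20 of 21 G2/M genes (median −0.08) and 15 of 19 G1/S genes (median −0.05), against 52.9% of all genes (median −0.01). Without Saline-water 9 the medians were −0.02 for G2/M, with 15 of 21 negative, and −0.01 for G1/S, with 10 of 19 negative. They were −0.10 for G2/M, with 20 of 21 negative, and −0.04 for G1/S, with 16 of 19 negative, without the libraries high in pancreas genes.

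Plk1 and Cdc6 were the 2 genes with the smallest p. Plk1 had 25.2 to 34.2 CPM (median 31.8) in Leptin-water and 25.7 to 44.6 CPM (median 33.6) in Saline-water, a log2 fold change of −0.17 (SE 0.07, edgeR adjusted p = 0.285). Cdc6 had 7.39 to 10.1 CPM (median 9.11) in Leptin-water and 6.14 to 9.87 CPM (median 7.89) in Saline-water, a log2 fold change of 0.20 (SE 0.07, edgeR adjusted p = 0.251). The ranges overlapped for both genes, and for Plk1 the upper part of the Saline-water range lay above every Leptin-water library. The spindle assembly factor gene Tpx2 was at −0.19 (SE 0.11), Troap at −0.15 (SE 0.08), Cdk2, the kinase partner of cyclin E, at −0.11 (SE 0.06) and Gmnn, which encodes the licensing inhibitor geminin, at −0.10 (SE 0.06). Mki67 was at −0.10 (SE 0.08), Lgr5 at −0.13 (SE 0.08), Alpi at 0.06 (SE 0.07) and Acta2 at 0.05 (SE 0.14). Of the other lists, 44 of 51 mitosis and 29 of 39 replication genes were negative with 0 called, and Mdm2 rose (log2 fold change 0.29, SE 0.06, edgeR adjusted p = 0.0269).

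The sets were also taken one at a time. Within set MT, 21 of 21 G2/M genes (median −0.14) but 8 of 19 G1/S genes (median 0.01) had a negative log2 fold change for leptin on water. Within set M, 17 of 21 G2/M genes (median −0.03) and 17 of 19 G1/S genes (median −0.10) did. Over all genes the share was 50.5% in set MT and 53.9% in set M. None of the 40 passed the threshold in either set, where 0.0122% (set MT) and 0.0856% (set M) of all genes did. The difference of the leptin effect, set MT minus set M, was tested directly and called none of the 40, against 0.0428% of all genes (7 genes), and 2 of the 40 had an unadjusted p under 0.05 against 9.86% of all genes.

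In that difference 15 of 21 G2/M genes (median −0.11) but 5 of 19 G1/S genes (median 0.09) were negative, against 48.2% of all genes. The G2/M direction turned with the tool, since limma voom gave a G2/M median of 0.03 with 8 of 21 negative and a G1/S median of 0.17 with 0 of 19 negative. Cenpf, with a log2 fold change of −0.19 (SE 0.12) within set MT and 0.19 (SE 0.11) within set M, differed by −0.39 (SE 0.16, edgeR adjusted p = 0.392). Tpx2 differed by −0.37 (SE 0.21) and Foxm1, the transcription factor of G2/M genes, by −0.35 (SE 0.17). Among the G1/S genes Pcna differed by 0.24 (SE 0.12), Mcm6 by 0.18 (SE 0.12) and Mcm4 by 0.18 (SE 0.15). Mki67 differed by −0.12 (SE 0.17), Lgr5 by 0.08 (SE 0.16), Alpi by 0.15 (SE 0.13) and Acta2 by −0.73 (SE 0.24). Smooth muscle genes moved with this difference, since 10 of 10 were negative (median −0.74), as did 9 of 9 stomach and Brunner gland genes (median 0.82) and 7 of 7 Paneth cell genes (median 0.97), and their part in the result was not tested. The summed level of smooth muscle genes was 968 to 1956 CPM in Leptin-water and 1670 to 2390 CPM in Saline-water of set MT, and 1275 to 2829 CPM in Leptin-water and 1379 to 2168 CPM in Saline-water of set M, with no marker at 0 counts. Without the libraries high in pancreas genes the G2/M median was −0.02 with 12 of 21 negative, and the G1/S median was 0.14.

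**Figure D3:**
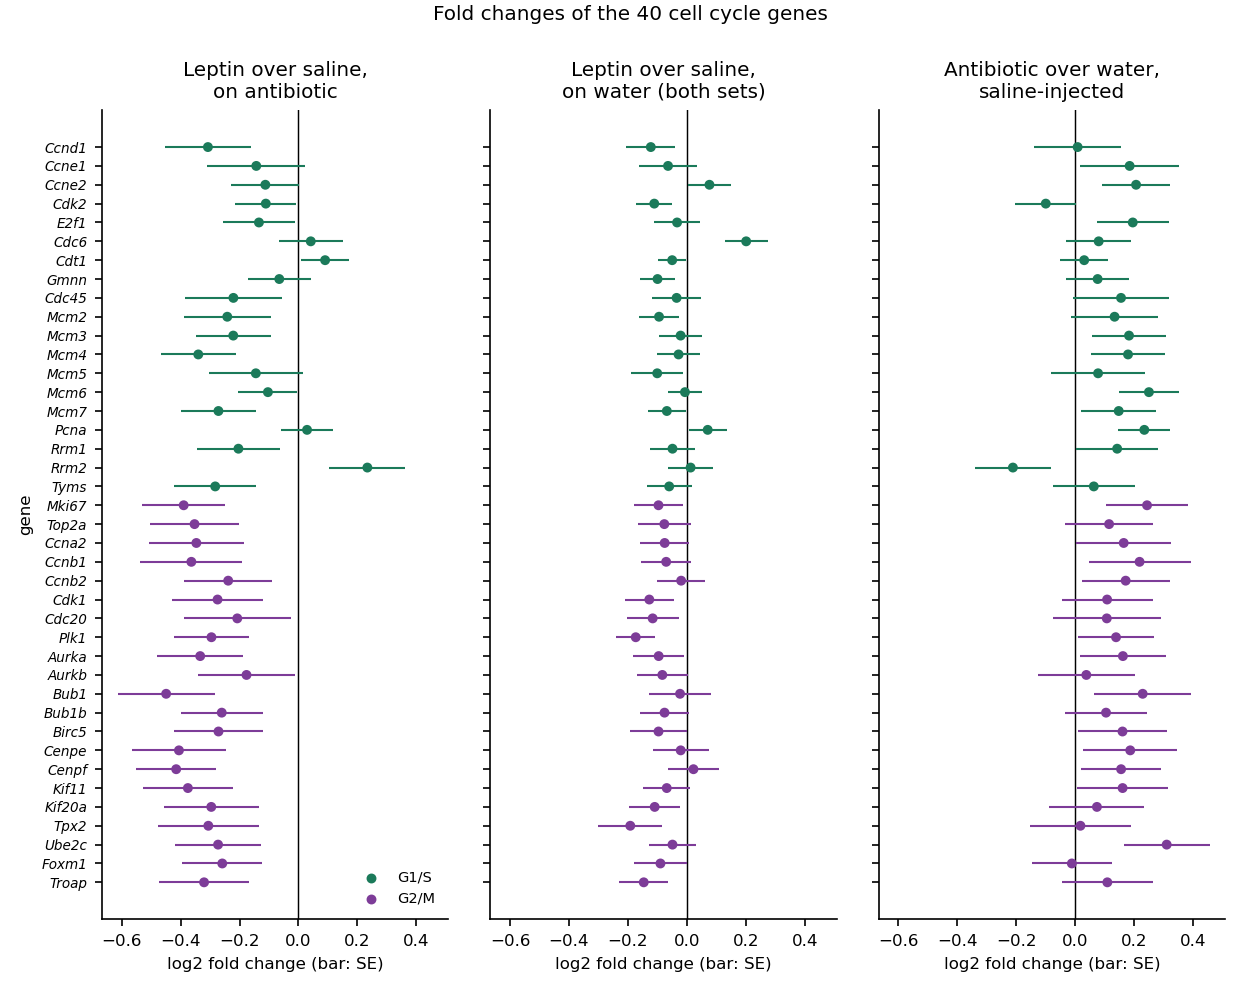
Log2 fold changes (horizontal axes, bars SE) of the 40 genes, one row per gene, for leptin over saline on antibiotic (left), leptin over saline on water in both sets (middle) and antibiotic over water after saline (right). G1/S genes are green and G2/M genes purple; the 21 G2/M points are all left of 0 on antibiotic (median −0.31), 20 of 21 are on water (median −0.08), and 20 of 21 are right of 0 for antibiotic after saline (median 0.15). The left and right panels share the Saline-antibiotic libraries.

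Whether the leptin effect differed between the drinks was tested as the difference antibiotic minus water within set MT. It called none of the 40 genes and 0 of the 16340 tested (0%) by edgeR, by DESeq2 or by limma voom. By edgeR 1 of the 40 had an unadjusted p under 0.05, against 6.38% of all genes (1043 genes). The difference was negative for 19 of 21 G2/M genes (median −0.21) and 17 of 19 G1/S genes (median −0.19), against 50.8% of all genes. Without Saline-antibiotic 1 the medians were −0.10 and −0.09, without Saline-water 9 they were −0.33 and −0.24, and that of G2/M was −0.10 without Saline-water 10. Without the libraries high in pancreas genes they were −0.15 for G2/M, with 18 of 21 negative, and −0.17 for G1/S, with 16 of 19 negative. Mcm4 had the smallest p, with a difference of −0.41 (SE 0.18, edgeR adjusted p = 0.772), and Mcm7 and Mcm6 were at −0.26 (SE 0.18) and −0.20 (SE 0.14). For Bub1 the difference was −0.38 (SE 0.23), for the cyclin B gene Ccnb1 −0.30 (SE 0.24), for Cenpf −0.22 (SE 0.19) and for Mki67 −0.23 (SE 0.20). Lgr5 was at −0.08 (SE 0.20), Alpi at 0.17 (SE 0.19) and Acta2 at 0.18 (SE 0.19). Villus enterocyte genes were positive in 16 of 18 (median 0.24) and pancreas genes negative in 18 of 18 (median −2.41), and their part in the result was not tested.

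Over all 39 libraries, with set and drink as strata, leptin was compared with saline once more. None of the 40 genes passed the threshold, against 3.01% of the 16358 genes (492 genes), and 13 had an unadjusted p under 0.05, against 17.1% of all genes. These were 9 G2/M genes, all lower with leptin, and 4 G1/S genes, 3 of them lower. The log2 fold change was negative for 21 of 21 G2/M genes (median −0.16) and 15 of 19 G1/S genes (median −0.09), against 54.8% of all genes (median −0.01). Without the libraries high in pancreas genes these counts were again 21 and 15, with medians of −0.14 and −0.06. These libraries are those of the comparisons on water and on antibiotic above, so the values are not independent of them.

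Plk1 came closest to the threshold, with a log2 fold change of −0.21 (SE 0.07, edgeR adjusted p = 0.0602), and DESeq2 called it (adjusted p = 0.0353). Its means were 30.6 ± 5.46 CPM in Leptin-antibiotic and 37.8 ± 7.80 CPM in Saline-antibiotic (SD, n = 6 each), 32.4 ± 1.62 CPM in Leptin-water and 34.5 ± 6.91 CPM in Saline-water of set MT (n = 6 each), and 30.1 ± 2.78 CPM (n = 7) in Leptin-water and 35.4 ± 4.31 CPM (n = 8) in Saline-water of set M. The mean was lower with leptin in all 3 strata. Cdc6 went the other way, with a log2 fold change of 0.15 (SE 0.06, edgeR adjusted p = 0.176), and limma voom called it (adjusted p = 0.0361). Tpx2 was at −0.23 (SE 0.09), Troap at −0.20 (SE 0.08), Ccnd1 at −0.18 (SE 0.08), Cdk2 at −0.11 (SE 0.05) and Mki67 at −0.19 (SE 0.07), with edgeR adjusted p-values of 0.142 to 0.242 for these 5.

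Some other cell cycle genes passed over the 39 libraries, where 3.01% of all genes did. Espl1, which encodes separase, the protease that frees sister chromatids, fell by 0.25 on the log2 scale (SE 0.07, edgeR adjusted p = 0.0230), and the kinesin gene Kif2c fell by 0.28 (SE 0.08, edgeR adjusted p = 0.0410). They were the 2 of 51 other mitosis genes called, of which 51 were negative (median −0.15). Among 39 other replication genes 36 were negative (median −0.11) and 0 were called. Among 11 drivers of G1, E2f2 fell (−0.33, SE 0.08, edgeR adjusted p = 0.0210), whereas Cdc25a, a phosphatase that activates Cdk2, rose (0.14, SE 0.04, edgeR adjusted p = 0.0152) and Skp2, which marks the inhibitor p27 for degradation, rose (0.18, SE 0.05, edgeR adjusted p = 0.0479). Among 20 brakes and their regulators, Mdm2, the inhibitor of p53, rose (0.33, SE 0.05, edgeR adjusted p = 0.000201) and Cdkn2b, an inhibitor of Cdk4 and Cdk6, fell (−0.24, SE 0.06, edgeR adjusted p = 0.0129). In the villus enterocyte list 16 of 18 genes were positive (median 0.14) and the sugar transporter genes Slc5a1 and Slc2a2 rose, by 0.38 (SE 0.08) and 0.28 (SE 0.08). In the stem cell and Wnt list 15 of 17 were negative (median −0.14) with 0 called and Lgr5 at −0.14 (SE 0.07), while Alpi was at 0.14 (SE 0.06) and Acta2 at −0.02 (SE 0.11).

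Antibiotic was compared with water within set MT. After saline none of the 40 genes passed the threshold, against 0.196% of the 16340 genes (32 genes), and 3 had an unadjusted p under 0.05, against 12.5% of all genes. The log2 fold change was positive for 20 of 21 G2/M genes (median 0.15) and 17 of 19 G1/S genes (median 0.14), against 51.8% of all genes (median 0.01). Without the libraries high in pancreas genes, 13 of 21 G2/M genes and 12 of 19 G1/S genes were positive, with medians of 0.03 and 0.04, and without Saline-antibiotic 1 alone the medians were 0.03 and 0.02. Without Saline-water 9 they were 0.25 and 0.20, and without Saline-water 10 they were 0.06 each, with 5 of 21 and 6 of 19 negative. Saline-antibiotic libraries also enter the leptin comparison on antibiotic, so the values of both rest on them.

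Pcna had 53.8 to 71.9 CPM (median 60.7) in Saline-antibiotic and 43.8 to 60.7 CPM (median 53.0) in Saline-water of set MT, a log2 fold change of 0.23 (SE 0.09, edgeR adjusted p = 0.281). Mcm6 was at 0.25 (SE 0.10), Ccne2 at 0.21 (SE 0.12), the ubiquitin-conjugating gene Ube2c of mitotic exit at 0.31 (SE 0.15), Mki67 at 0.24 (SE 0.14) and Bub1 at 0.23 (SE 0.16). Lgr5 was at −0.19 (SE 0.14), Alpi at 0.06 (SE 0.13) and Acta2 at 0.14 (SE 0.14). The summed level of the 18 pancreas genes was 16.1 to 1486 CPM in Saline-antibiotic and 16.3 to 199 CPM in Saline-water of set MT, and 18 of 18 were positive (median 3.28).

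After leptin, antibiotic against water called none of the 40 genes, against 2.28% of all genes (372 genes), and 0 of the 40 had an unadjusted p under 0.05, against 18.9% of all genes. The log2 fold change was negative for 15 of 21 G2/M genes (median −0.05) and 12 of 19 G1/S genes (median −0.06), against 52.2% of all genes. Without the libraries high in pancreas genes, 17 of 21 and 14 of 19 were negative, with medians of −0.11 and −0.13. With 1 library left out, the G2/M median was −0.10 (without Leptin-antibiotic 6) to −0.01 (without Leptin-antibiotic 5), and the G1/S median was −0.11 (without Leptin-water 10) to −0.03 (without Leptin-antibiotic 1). Mcm4 was at −0.23 (SE 0.13), Cdt1 at 0.11 (SE 0.08) and Cdc6 at −0.12 (SE 0.11), and Bub1, Tpx2 and Top2a were at −0.15 (SE 0.16), 0.11 (SE 0.17) and −0.09 (SE 0.15). Mki67 was at 0.02 (SE 0.14), with 155 to 204 CPM in Leptin-antibiotic and 138 to 199 CPM in Leptin-water of set MT. Lgr5 was at −0.27 (SE 0.14), Alpi at 0.23 (SE 0.13) and Acta2 at 0.32 (SE 0.14). In the villus enterocyte list 18 of 18 genes were positive (median 0.33) and Apoa4 rose (0.70, SE 0.19, edgeR adjusted p = 0.0462), and the smooth muscle gene Actg2 rose as well (0.72, SE 0.15, edgeR adjusted p = 0.0131), as did Slc10a2 (0.83, SE 0.22, edgeR adjusted p = 0.0462), while the B cell gene Ms4a1 fell (−2.05, SE 0.39, edgeR adjusted p = 0.00742).

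Averaged over both injections, antibiotic called none of the 40 genes, against 6.45% of all genes (1054 genes), with 2 of the 40 at an unadjusted p under 0.05, against 22.8% of all genes. The values were positive for 21 of 21 G2/M genes (median 0.04) and 13 of 19 G1/S genes (median 0.03), against 49.7% of all genes, but without the libraries high in pancreas genes 15 of 21 and 13 of 19 were negative (medians −0.04 and −0.06), and without Saline-antibiotic 1 the medians were −0.02 and −0.05. Without Saline-water 10 they were 0.00 and −0.01, and without Leptin-antibiotic 3 that of the G1/S genes was −0.01. Their direction therefore turned with the libraries used. Pcna was at 0.15 (SE 0.06, edgeR adjusted p = 0.159), Mcm6 at 0.15 (SE 0.07), E2f1 at 0.16 (SE 0.09), Ube2c at 0.19 (SE 0.10), Mki67 at 0.13 (SE 0.10) and the survivin gene Birc5 at 0.12 (SE 0.11). In the stem cell and Wnt list Rnf43, which removes Wnt receptors from the membrane, fell (−0.37, SE 0.07, edgeR adjusted p = 0.00288) and Lgr5 was at −0.23 (SE 0.10), while 18 of 18 villus enterocyte genes were positive (median 0.21), with Fabp2, Anpep and Lct rising by 0.63 (SE 0.15), 0.57 (SE 0.15) and 0.52 (SE 0.14), and Alpi at 0.14 (SE 0.09). Of the smooth muscle genes Actg2 and Tagln rose, by 0.57 (SE 0.10) and 0.27 (SE 0.08), with Acta2 at 0.23 (SE 0.10).

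The sets were compared in Saline-water mice, the group with 6 libraries in set MT and 8 in set M. Here 1 of the 40 genes passed the threshold (2.50%), against 12.2% of the 16332 genes tested (1997 genes), and 8 had an unadjusted p under 0.05, against 28.7% of all genes. That gene was Cenpf, which had 27 to 51.7 CPM (median 35.8) in set MT and 22.6 to 32.7 CPM (median 28.5) in set M. Cenpf was higher in set MT with a log2 fold change of 0.38 (SE 0.11, edgeR adjusted p = 0.0308), and 5 of its 6 set MT libraries lay above the highest of set M. The call was lost without Saline-water 3 (adjusted p = 0.0512), 7 (0.0586) or 9 (0.0555, log2 fold change 0.26). Without Saline-water 10, 7 of the 40 passed, where 1964 of all genes did. These were Cenpf, Kif20a, Ccna2, Bub1, Cenpe, Tyms and Foxm1. Without Saline-water 11, 2 of the 40 passed, Cenpf and Cdt1, where 1939 of all genes did.

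The log2 fold change of set MT over set M was positive for 18 of 21 G2/M genes (median 0.20) and 12 of 19 G1/S genes (median 0.07), against 51.4% of all genes (median 0.01). Without Saline-water 9 the medians were 0.09 and −0.01, with 6 of 21 and 11 of 19 negative. The kinesin genes Kif20a and Cenpe of the spindle were at 0.35 (SE 0.14) and 0.37 (SE 0.15), Ccne2 at 0.29 (SE 0.11), the thymidylate synthase gene Tyms at 0.30 (SE 0.13) and Cdt1 at −0.15 (SE 0.06), with edgeR adjusted p-values of 0.0935 to 0.132. Mki67 was at 0.16 (SE 0.13) and Plk1 at −0.04 (SE 0.11). Of the other mitosis genes 43 of 51 were positive (median 0.21), and Kif18a and the condensin gene Smc2 were higher in set MT, by 0.61 (SE 0.15) and 0.39 (SE 0.12). The brakes Ccng1 and Cdkn1b, the gene of p27, were also higher, by 0.30 (SE 0.04) and 0.22 (SE 0.04). In the stem cell and Wnt list 12 of 17 were negative (median −0.14), and 5 were called lower in set MT, among them Rnf43 (−0.52, SE 0.11), Ephb3 (−0.79, SE 0.17) and Sox9 (−0.55, SE 0.12), while Lgr5 was at 0.00 (SE 0.12).

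Tissue markers differed between the sets too. The stomach and Brunner gland list was negative in 9 of 9 genes (median −1.02), with Muc6 and Tff1 lower in set MT at −1.02 (SE 0.27) and −2.30 (SE 0.66), and a summed level of 8199 to 21606 CPM in set MT and 15332 to 43674 CPM in set M, with no marker at 0 counts. Acta2 was higher in set MT (0.43, SE 0.12), as was the villus tip gene Nt5e (0.69, SE 0.13), and Alpi was at −0.23 (SE 0.10). The part of these tissues in the values of the 40 genes was not tested, and whatever else differed between the sets cannot be told apart from set itself.

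Library by library, Mki67 was related to 5 partner genes in each set, 10 relations in all, with permutation p-values adjusted by Benjamini-Hochberg. With Top2a, Pearson's r of log2 CPM was 0.92 in set MT (n = 24, Spearman's rho 0.84, adjusted permutation p = 5e-05 for each, from the smallest p that the permutations can give) and 0.85 in set M (n = 15, rho 0.88, adjusted permutation p = 0.000167 and 1e-04). Without the 2 libraries farthest from the median of Mki67, r was 0.88 in set MT and 0.73 in set M. With Mcm2, a helicase gene of the G1/S phases, r was 0.85 in set MT (rho 0.80, adjusted permutation p = 5e-05 for each) and 0.67 in set M (rho 0.59, adjusted permutation p = 0.0126 and 0.0452). Without the 2 farthest libraries it was 0.77 in set MT and 0.40 in set M, where it rested on Saline-water 3 and 6.

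With the villus gene Alpi, r was −0.64 in set MT (rho −0.50, adjusted permutation p = 0.00255 and 0.0375), and −0.55 without Saline-antibiotic 1 and 4. In set M it was −0.11 (rho −0.09, adjusted permutation p = 0.698 and 0.751). With Acta2, r was 0.34 in set MT (rho 0.24, adjusted permutation p = 0.126 and 0.295) and −0.59 in set M (rho −0.48, adjusted permutation p = 0.0379 and 0.122), and −0.70 without Saline-water 3 and 6. With the stem cell gene Lgr5, r was 0.36 in set MT (rho 0.31, adjusted permutation p = 0.123 and 0.185) and 0.32 in set M (rho 0.39, adjusted permutation p = 0.266 and 0.185). Libraries high in Mki67 were thus also high in Top2a in both sets, and in set MT they were low in Alpi, while its relation to Lgr5 did not pass. Each set pools its groups, and CPM values of a library share its total.

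**Figure D4:**
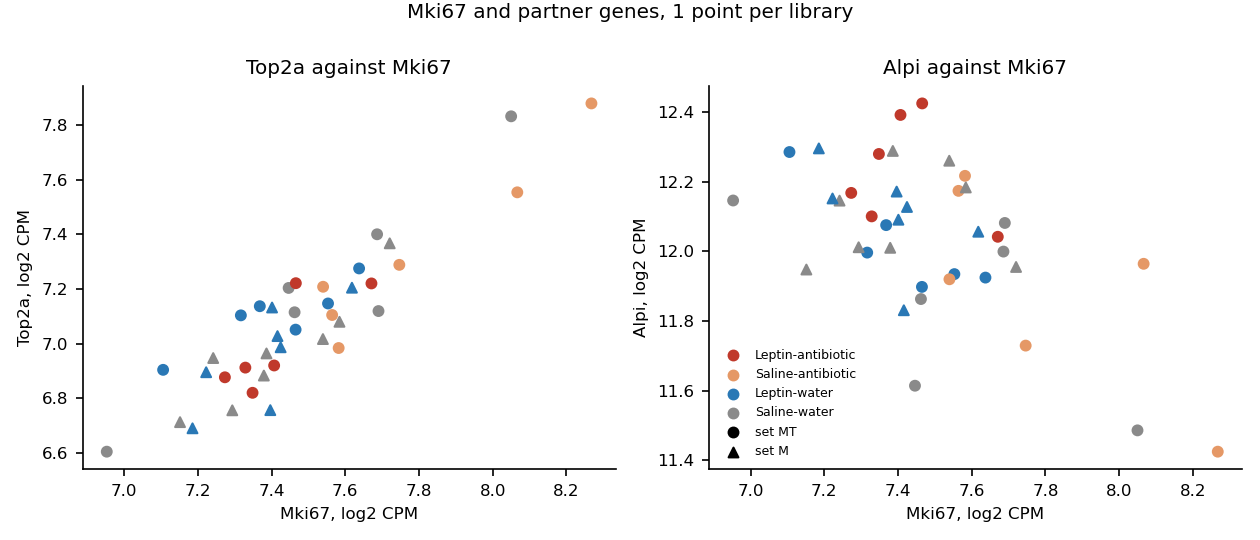
Log2 CPM of Top2a (left) and Alpi (right), vertical axes, against log2 CPM of Mki67, horizontal axes, with 1 point per library. Circles are set MT and triangles set M, and colours give the group. Top2a climbs with Mki67 (r 0.92 in set MT, 0.85 in set M), and the 2 set MT libraries with the lowest Alpi, Saline-antibiotic 1 and Saline-water 9, are among the 3 with the highest Mki67.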

How the data were processed

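Total RNA of whole duodenum was extracted with Trizol, and 150 ng went into ribosome-depleted, stranded, paired-end libraries, per the labels' protocols. The deposited values are whole-number read counts per gene. HISAT2, featureCounts, FastQC, edgeR 3.42.0 and the build mm10 are named in the submitters' processing notes. The gene annotation, the strand setting of counting and the rule by which the authors filtered the table were not given in the sources used here. Where a gene shares reads with an overlapping, antisense or near-identical gene, its count is uncertain.

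The 40 symbols, the other gene lists and the tests were chosen with earlier results of these data known. Genes were named by a rule: members past the threshold and, in each comparison, the 3 of each phase with the smallest p, with Mki67, Lgr5, Alpi and Acta2 in every comparison; other members were named by level or to complete a count. Genes of other lists were named where they passed, at most 3 per direction, with an exception that is not reported here.

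Counts were filtered on low values and scaled by TMM, and edgeR 4.0.16 (R 4.3.3) fitted a quasi-likelihood model with Benjamini-Hochberg adjustment over all genes and a threshold of 0.05. Both sets on water were fitted together with set as a term, set MT by its 4 groups, all 39 libraries by strata of set and drink, and Saline-water libraries by set. Steps were tested on simulated data. The SE of an edgeR log2 fold change was derived from its test, as the absolute log2 fold change divided by the square root of the F statistic. CPM are TMM-scaled, with a prior count of 2 on the log2 scale. Exon lengths are from GENCODE release 21 of the mouse annotation. Permutation tests used 100000 permutations and were two-sided. Alternatives were DESeq2 1.42.0, limma 3.58.1 voom with quality weights, RLE size factors, no filter on low counts, a replicate block, each library left out in turn (not run for leptin over all libraries or for the difference between sets), and leaving out 6 libraries whose mean of pancreas genes was over 4 log2 CPM. No 2 libraries held identical counts, and the 109 pairs within groups differed beyond sampling noise (chi-square per degree of freedom 19.7 to 201). Library totals of 30207536 to 67870777 counts set the precision.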

Additional observations from a re-analysis of the deposited data

Results flagged for a closer look

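Of 240 Dixon tests, 1 for each of the 40 genes in each of the 6 combinations of set, injection and drink, 17 put a library farther from its group than the 95% critical value allows, where chance gives about 1 in 20, or 12. The 40 genes of a library share its tissue and depth, so these tests are not independent of each other.

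Saline-antibiotic 1 gave 8 of the 17, always as the highest of its group. It had 56.4 CPM of Ccnd1 (next highest 43.7), 22.2 CPM of Cdk2 (17.1), 8.13 CPM of E2f1 (6.55), 27.1 CPM of Cdt1 (22.8) and 39.8 CPM of Mcm2 (27.2) among the G1/S genes. Among the G2/M genes it had 35.3 CPM of Cdk1 (24.7), 52.5 CPM of Plk1 (39.1) and 33.2 CPM of Ube2c (23.3). It is also 1 of the 6 libraries high in pancreas genes.

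Saline-water 6 gave 4, as the highest of set M Saline-water, with 18.5 CPM of the mitotic kinase gene Aurka (next highest 14.0), 14.0 CPM of Bub1 (10.4), 21.7 CPM of Birc5 (17.9) and 23.0 CPM of Tpx2 (19.2). Saline-water 9 had 30.5 CPM of Birc5, the highest of set MT Saline-water (next 19.2).

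Libraries stood low for 4 genes. Leptin-water 1 had 7.39 CPM of Cdc6 (next lowest 8.94), Leptin-antibiotic 4 had 4.66 CPM of E2f1 (5.75), Leptin-water 12 had 15.4 CPM of Ube2c (17.8) and Leptin-water 10 had 2.43 CPM of Troap (3.27).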

How the results depend on the processing

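In the 8 comparisons of leptin or antibiotic, 0 of the 40 genes passed with RLE size factors, with no filter on low counts or without the libraries high in pancreas genes. For leptin over all libraries, DESeq2 and limma voom each called 1 gene (Plk1 by DESeq2, Cdc6 by limma voom), against 0. For set MT against set M, 0 to 7 of the 40 passed when 1 library was left out, against 1. Over all genes 1394 to 2193 then passed, against 1997. For single genes, values under other settings were tallied only for the 3 of each phase with the smallest p in each comparison. Of these values, 1245 kept their direction and side of the threshold, 6 newly passed and 3 no longer passed. Ccna2, Bub1 and Foxm1, which newly passed for set MT against set M without Saline-water 10, are outside this tally.

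Counts over all genes moved more. By DESeq2 they were 173 for leptin on water (edgeR 51), 410 for leptin on antibiotic (84), 183 for antibiotic after saline (32), 787 for antibiotic after leptin (372) and 75 for the difference between sets (7). By limma voom they were 128, 96, 81, 1394 and 0 in the same order, and 2201 for antibiotic over both injections (1054). Without the libraries high in pancreas genes they were 33, 0, 17, 205 and 3, and 295 for leptin over all libraries (492). Leaving out 1 library gave 10 to 147 for leptin on water, lowest without Leptin-water 2, 9 to 183 for leptin on antibiotic, lowest without Leptin-antibiotic 3, and 73 to 650 for antibiotic after leptin, lowest without Leptin-water 9 and highest without Saline-water 13. It was not run for leptin over all libraries or for the difference between sets. The cause was not tested.

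Replicate numbers did not pair the libraries: same-numbered libraries had correlations of −0.21 to 0.50, over 0.1 in 4 of 18 pairs, and 2 of 18 correlated best with their own number. With the replicate block 0 of the 40 genes passed on water or on antibiotic, and over all genes 0 passed on water and 13 on antibiotic, against 6 and 61 in the same libraries without it, a fit added after seeing the data.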
